A study of Nannochloropsis oceanica with 44 samples.

Results

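The step from 6 h to 12 h after nitrogen was given back to deprived cells of the alga Nannochloropsis oceanica is described here, gene by gene. It sets 12 h of nitrogen resupply (12 h NR) against 6 h of resupply (6 h NR). These are 8 of the 44 libraries of the series, 4 in each group, and 2 of the 10 time points in the deposited tables. All 2489 genes of the 4 deposited tables were members, with no filter on level or on size of difference. Both groups were wild type cultures of strain CCMP1779, kept in shaken liquid F/2 medium under continuous light. Both had spent 72 h in nitrogen-free medium before the resupply, so their clock counts hours after that. The series also followed deprivation itself (N-) over the same 5 clock times as resupply, the last at 72 h. The labels give 2 biological replicates for each time point and 4 libraries, and do not say which libraries share a culture.

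Nannochloropsis is a unicellular marine alga that stops dividing when nitrogen runs out, takes down part of its photosynthetic apparatus and stores carbon as triacylglycerol oil. When nitrogen returns, algal cells assimilate it into glutamine and glutamate, rebuild protein and chlorophyll, draw on the stored oil and go back to growth. The hours between these states are those in which transcripts of resting cells give way to transcripts of growing ones. The genes here carry identifiers of an annotation pipeline, and no source used here pairs them with names, so the genes cannot be sorted by function and the labelled cell type could not be checked against markers.

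Each gene had 1 value per time point on a log2 scale, joined over the libraries by the authors. A level below is that value, and a difference is the 12 h NR value minus the 6 h NR value. A gene is called higher or lower at 12 h NR where the difference is past 1 in size, which is 2-fold. Values per library were not analysed here, so differences carry neither error nor p-value and could not be set against the spread between replicate cultures. The values describe the RNA of a whole culture, so fewer cells with a transcript and less of it per cell cannot be told apart. The authors' test had picked these genes as differing between resupply and deprivation, and their profiles were used to form the clusters, the 2 time points of the step included. Cluster counts below are therefore descriptions.

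Between 6 h and 12 h of resupply most of the 2489 genes stayed within 2-fold. Those called lower and those called higher lay mostly in different clusters. In all, 269 genes were higher at 12 h NR (10.8% of the genes) and 343 were lower (13.8%), while 1877 (75.4%) stayed within 2-fold. Cluster 3 held 311 of the 343 lower genes (90.7%), and cluster 4 held 178 of the 269 higher ones (66.2%). Most differences below the limit also had a negative sign, since 1593 genes had a lower value at 12 h NR and 896 a higher one. The median difference over all genes was -0.27, with quartiles over genes of -0.71 and 0.31.

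Small differences were mostly downward and large ones upward. Past 1.5-fold, 446 genes were higher (17.9%) and 775 lower (31.1%). Past 3-fold, 74 genes were higher (2.97%) and 15 were lower (0.603%). Past 4-fold, 25 were higher (1.00%) and 1 was lower (0.0402%), and past 8-fold 5 were higher (0.201%) and 0 lower (0.00%). The largest difference upward was 5.01 and the largest downward -2.08. The limit cuts through a dense part of the distribution. Differences between 1 and 1.1 in size were found for 130 of the called genes, and 128 genes outside the call lay between 0.9 and 1. The called genes nearest the limit had differences of 1.001 and -1.001, and the nearest uncalled ones 0.999 and -0.997.

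The balance between the directions depends on how the columns are scaled. The column medians over all genes were 8.25 at 12 h NR and 8.34 at 6 h NR. With each column centred on its median, 305 genes were higher (12.3%) and 264 lower (10.6%), so that 53.6% of the called genes were higher, against 44.0% on the deposited scale. With the 4 clusters weighted equally in the centre, 276 were higher (11.1%) and 337 lower (13.5%). The sign of the median difference in each cluster was the same on all 3 scales. The column differences subtracted, -0.087 and -0.009, were too small to change it, so this is no check.

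**Figure D1:**
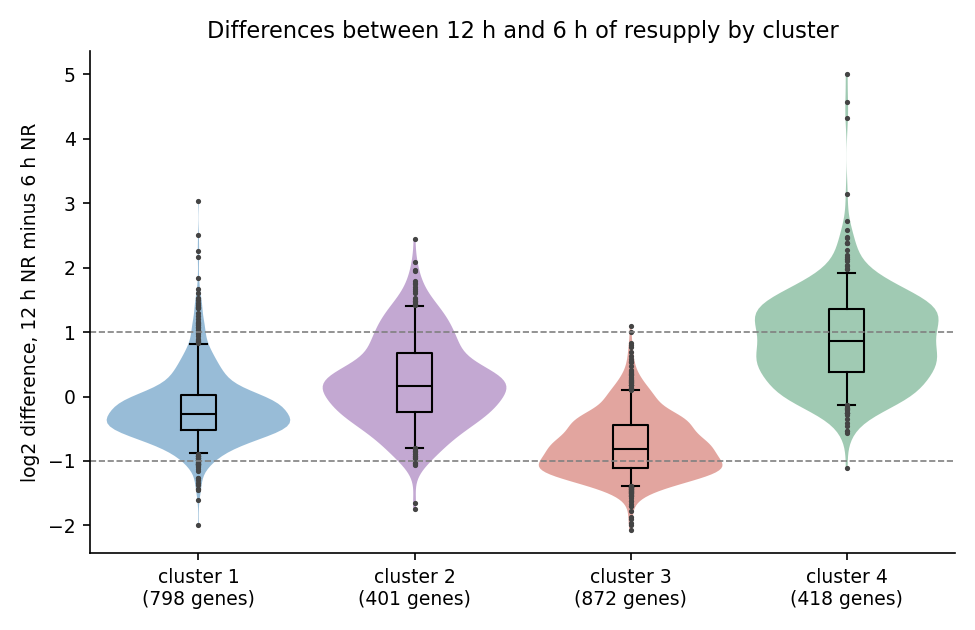
Differences between 12 h NR and 6 h NR (log2) for the genes of each deposited cluster. Boxes give median and quartiles over genes, whiskers the range from percentile 5 to percentile 95, points the genes beyond them, and dashed lines the 2-fold limit. Cluster 3 lies mostly below 0, with a median of -0.82, and cluster 4 mostly above it, with a median of 0.87.

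Cluster 3 held most of the genes that were lower at 12 h NR. It had 311 lower genes among its 872 (35.7%) and 2 higher ones (0.229%), against 13.8% and 10.8% over all genes. The median difference was -0.82, with quartiles of -1.11 and -0.44, and 810 of the 872 genes had a lower value at 12 h NR. Its median level was 6.48 at 12 h NR and 7.34 at 6 h NR. After centring on column medians 247 genes were lower, 2 were higher and the median was -0.73.

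The 311 lower genes of cluster 3 had a median level of 7.90 at 72 h N-, 8.24 at 6 h NR, 6.91 at 12 h NR and 11.36 at 24 h NR. The 559 genes of the cluster within 2-fold had a like course, with 6.96, 6.59, 5.96 and 9.48 at these times. For 303 of the 311 (97.4%) the 12 h NR value was the lowest of the 10 time points, which follows in part from picking them by that value. At their highest in deprivation, 12 h N-, the same genes had a median level of 10.33. Over the whole cluster 757 of 872 genes (86.8%) were at their lowest at 12 h NR, against 908 of all 2489 genes (36.5%). After centring these were 576 genes of the cluster (66.1%) and 608 of all genes (24.4%).

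In cluster 3 the size of the difference grew with the level of the gene. All 2489 genes were divided into 4 equal bands by their mean level over the 10 time points. In cluster 3 the median difference was -0.60 in the lowest band (289 genes), -0.91 in the second (251 genes), -0.97 in the third (198 genes) and -1.06 in the highest (134 genes). The share called lower was 16.3%, 39.8%, 46.0% and 54.5% in these bands. Whether a log2 transformation that shrinks low values has a part in this was not tested.

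The largest difference downward of all genes was that of maker-nanno_342-augustus-gene-0.8 in cluster 3. Its level was 9.04 at 12 h NR, against 11.11 at 6 h NR, which is 4.22-fold lower. Over the 5 times of deprivation, in order, it stood at 14.69, 15.41, 14.74, 12.75 and 11.05, and later in resupply at 15.83, 15.09 and 15.36 at 24, 48 and 72 h NR. Its 12 h NR value was the lowest of the 10, and its 6 h NR value was within 0.07 of that at 72 h N-. A second gene, maker-nanno_599-augustus-gene-0.20, was at 5.51 at 12 h NR, against 7.50 at 6 h NR, 3.97-fold lower, and its 6 h NR value was itself above the 6.47 of 72 h N-.

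The 2 genes of cluster 3 that were higher were close to the limit. The gene maker-nanno_992-snap-gene-0.19 was at 8.41 at 12 h NR, against 7.31 at 6 h NR, and augustus_masked-nanno_6523-abinit-gene-0.0 was at 5.37, against 4.36. Both had their lowest value of all time points at 6 h NR, which is 1 time point earlier than most genes of the cluster.

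Cluster 4 moved the other way. Of its 418 genes, 178 were higher at 12 h NR (42.6%, against 10.8% over all genes) and 1 was lower (0.239%, against 13.8%). The median difference was 0.87, with quartiles of 0.37 and 1.36, and 374 genes had a higher value at 12 h NR. Its median level was 7.63 at 12 h NR and 6.77 at 6 h NR. After centring on column medians the median was 0.95, and 204 genes were higher and 1 lower.

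The 178 higher genes of cluster 4 had a median level that was lowest at 6 h NR. It was 7.57 at 72 h N-, 6.97 at 6 h NR, 8.39 at 12 h NR, 9.28 at 24 h NR and 10.04 at 48 h NR. The 239 genes of the cluster within 2-fold also had their lowest median level at 6 h NR, 6.65. In 120 of the 178 (67.4%) the 6 h NR value was the lowest of the 10 time points, against 59.3% of the cluster and 20.8% of all genes. Genes with a 12 h NR value above the 6 h NR value cannot have their lowest value at 12 h NR, so this share follows in part from how they were picked. At 12 h NR the median difference of the 178 genes from 72 h N- was 0.98, against -0.25 over all genes and 0.41 in the cluster. From 12 h N- it was -1.37, against -1.81 over all genes and -1.73 in the cluster. These are on the deposited scale, where the column median was 8.25 at 12 h NR and 9.70 at 12 h N-. By band of mean level, from the lowest to the highest, the median difference of the cluster was 0.63, 0.92, 1.01 and 0.99. The share called higher was 33.1%, 45.4%, 51.0% and 47.9%.

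**Figure D2:**
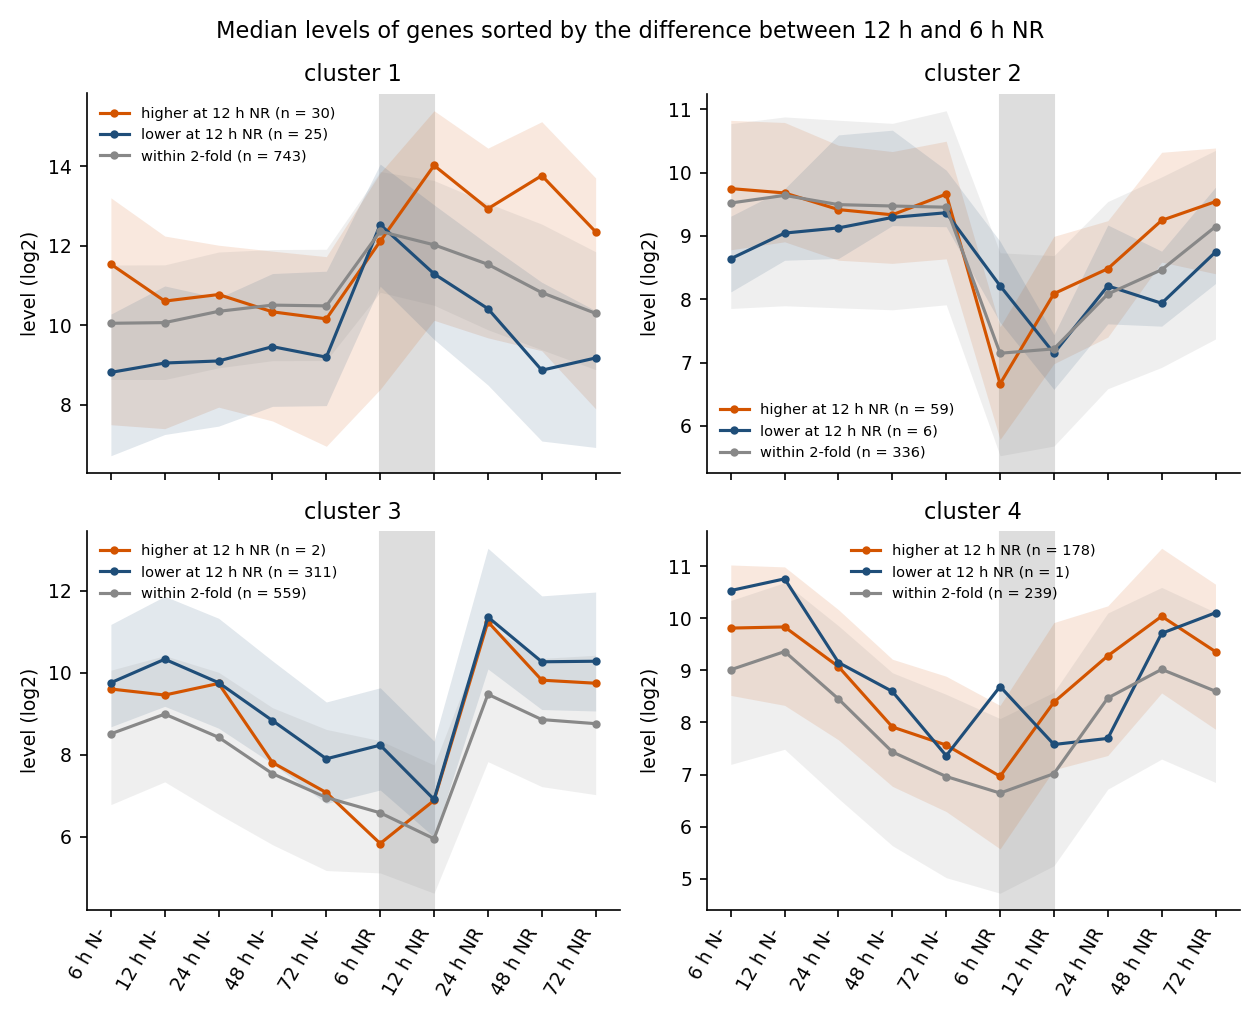
Median level (log2) at the 10 time points, in evenly spaced order, of genes called higher, called lower or within 2-fold between 12 h NR and 6 h NR, by cluster. Bands are the quartiles over genes for sets of 6 or more, and the grey strip marks the step. In cluster 3 the lower genes reach a median of 6.91 at 12 h NR before 11.36 at 24 h NR, and the genes within 2-fold 5.96 before 9.48. In cluster 4 the higher genes leave a low of 6.97 at 6 h NR, and the genes within 2-fold a low of 6.65.

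Among the 25 genes more than 4-fold higher at 12 h NR, 19 belonged to cluster 4, 4 to cluster 1 and 2 to cluster 2. These 25 came to the step along different paths, and they were divided, after their values were seen, by whether their level had more than halved between 6 h and 12 h of deprivation. Such a fall was found in 41 of all 2489 genes (1.65%). The 11 of the 25 that had it were early losers of deprivation. Their median level was 11.46 at 6 h N-, 8.55 at 12 h N- and 8.10 at 72 h N-, followed by 9.45 at 6 h NR and 12.76 at 12 h NR. Of these 11, 9 were already higher at 6 h NR than at 72 h N-, and 0 were more than 2-fold lower there. Their median difference between 6 h NR and 72 h N- was 1.06, against 0.18 over all 2489 genes. Of all genes, 717 were more than 2-fold higher at 6 h NR than at 72 h N- and 564 more than 2-fold lower.

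The other 14 had differences between 12 h N- and 6 h N- from -0.95 to 0.25, with a median of -0.14. Their median level was 9.75 at 6 h N-, 9.50 at 12 h N- and 8.47 at 72 h N-, followed by 6.57 at 6 h NR and 9.00 at 12 h NR. Of these 14, 12 were lower at 6 h NR than at 72 h N-, and 11 by more than 2-fold. Over all 2489 genes, 564 were more than 2-fold lower at 6 h NR than at 72 h N-. The 25 genes were picked by a 12 h NR value far above the 6 h NR value, which favours a low 6 h NR value. The counts of lower genes among the 14 thus follow in part from how they were picked. On the deposited scale, the median of the first set at 12 h NR lay above its 6 h N- level. That of the second lay between its 72 h N- and 12 h N- levels. In 24 of the 25 genes the level at 48 h NR was above that at 12 h NR, while in 17 of them the level at 24 h NR was below it. Their median difference between 48 h NR and 12 h NR was 1.08, against 1.40 over all genes and 1.71 in cluster 4. Between 24 h NR and 12 h NR it was -0.36, against 0.99 over all genes and 0.99 in cluster 4. Picking genes by a high 12 h NR value favours a lower value at 24 h NR, so the 17 follow in part from that.

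**Figure D3:**
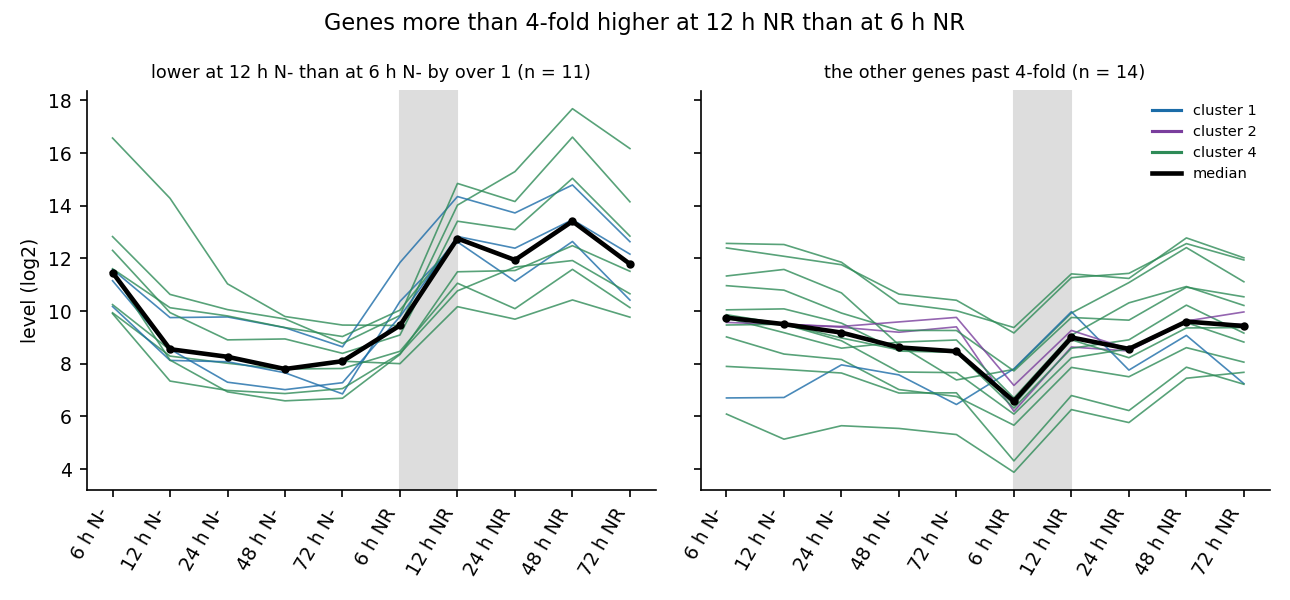
Levels (log2) at the 10 time points, in evenly spaced order, of the 25 genes more than 4-fold higher at 12 h NR than at 6 h NR, 1 line per gene in the colour of its cluster, with the median in black and the step in grey. On the left are the 11 genes whose 12 h N- level lay more than 2-fold under the 6 h N- level, with a median of 12.76 at 12 h NR and 9.45 at 6 h NR. On the right are the other 14, with a low of 6.57 at 6 h NR.

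The largest difference of all genes was that of maker-nanno_4100-augustus-gene-0.5 in cluster 4, on contig 4100. Its level was 14.85 at 12 h NR, against 9.83 at 6 h NR, which is 32.3-fold higher. Over the 5 times of deprivation, in order, it had stood at 12.83, 10.63, 10.05, 9.70 and 8.77, and later in resupply at 14.16, 16.61 and 14.15 at 24, 48 and 72 h. The 12 h NR level was thus already above every level seen in deprivation.

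The gene with the next largest difference, augustus_masked-nanno_1644-abinit-gene-0.9, was at 14.02 at 12 h NR, against 9.45 at 6 h NR, 23.7-fold higher. Its level at 6 h NR differed from that at 72 h N- by -0.02, and it stood at 15.30, 17.69 and 16.17 at 24, 48 and 72 h NR. The third largest belonged to maker-nanno_4100-snap-gene-0.6, named after its values were seen because it lies on the same contig as the first and bears the next gene number. Its level was 13.41 at 12 h NR, against 9.09 at 6 h NR. Whether the 2 models on contig 4100 are separate transcripts, copies or parts of 1 gene is not known here. The 1 lower gene of cluster 4, snap_masked-nanno_59-abinit-gene-0.6, was at 7.58 at 12 h NR, against 8.69 at 6 h NR, and was above its 72 h N- level of 7.36 at both times.

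**Figure D4:**
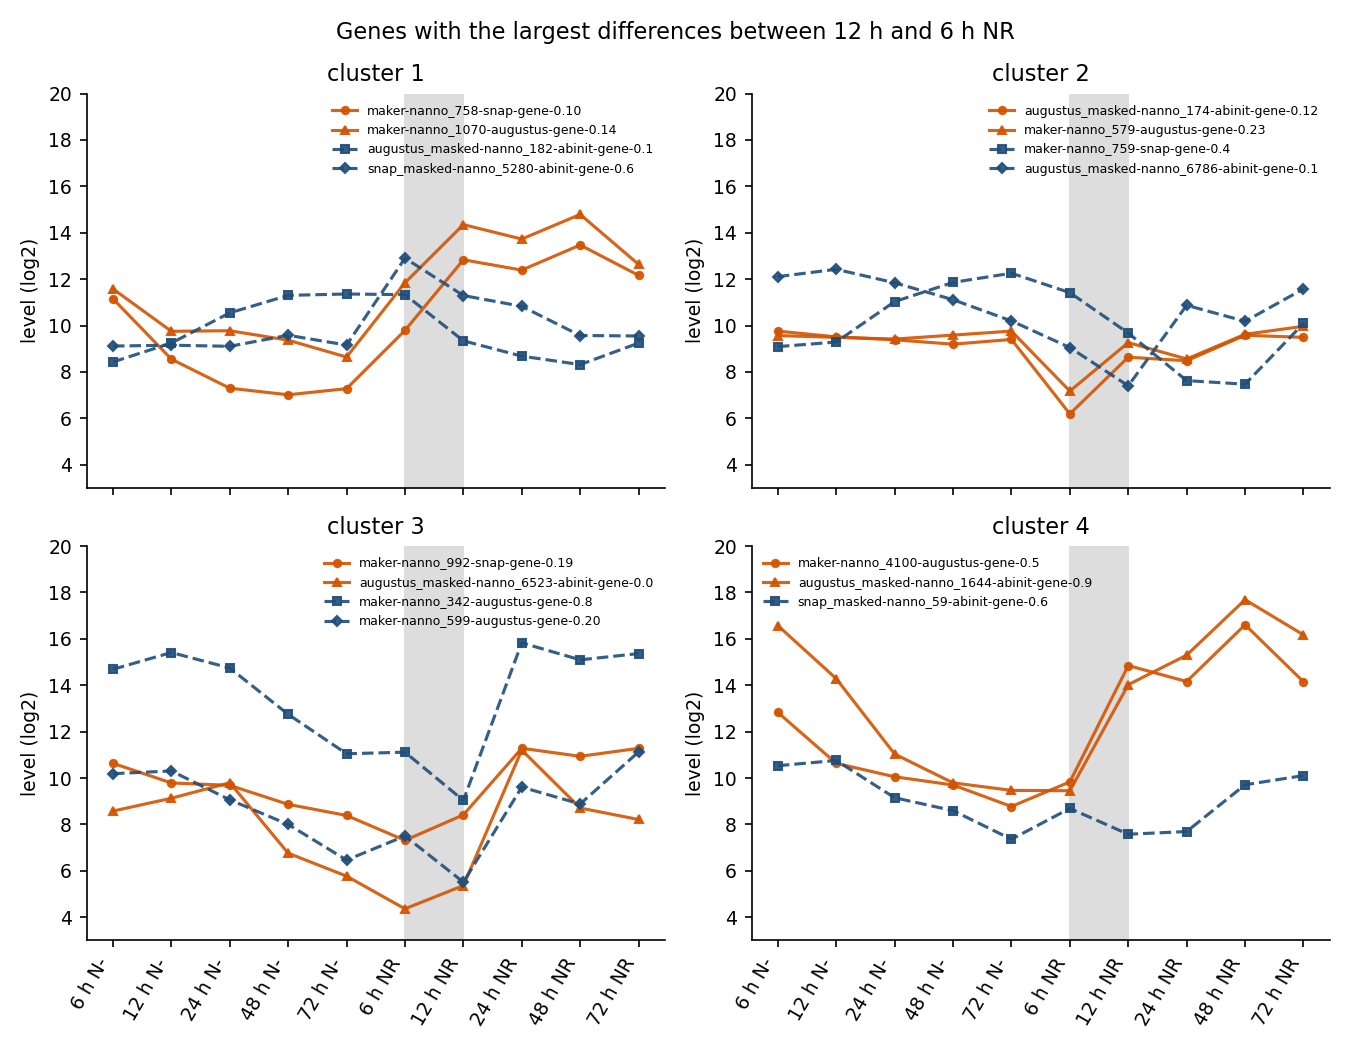
Levels (log2) at the 10 time points, in evenly spaced order, of the genes with the largest differences between 12 h NR and 6 h NR in each cluster, at most 2 in each direction. Solid orange lines are genes higher at 12 h NR, dashed blue lines genes lower at 12 h NR, and the grey strip marks the step. The largest step is that of maker-nanno_4100-augustus-gene-0.5, at 14.85 at 12 h NR and 9.83 at 6 h NR.

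Cluster 1, the genes that were high early in resupply, mostly held its level over this step. Of its 798 genes, 743 (93.1%) stayed within 2-fold, 30 were higher (3.76%) and 25 lower (3.13%), both below the shares over all genes. The median difference was -0.28, with quartiles of -0.52 and 0.02, and its median level was 12.05 at 12 h NR and 12.36 at 6 h NR. After centring, 33 genes were higher and 14 lower, so the count of lower genes depends on the scale. Levels over 2-fold higher than at any time of deprivation were found for 597 genes of the cluster at 12 h NR and for 631 at 6 h NR, against 600 (24.1%) and 631 (25.4%) over all clusters, and 548 genes of the cluster had them at both times. After centring these were 694 and 727 genes of the cluster, against 706 (28.4%) and 732 (29.4%) over all clusters, with 681 genes of the cluster at both times.

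The 30 higher genes of cluster 1 had a median level of 11.54 at 6 h N-, 10.16 at 72 h N-, 12.11 at 6 h NR, 14.02 at 12 h NR and 12.93 at 24 h NR. The 25 lower genes had a median level of 8.82 at 6 h N-, 9.20 at 72 h N-, 12.53 at 6 h NR, 11.29 at 12 h NR and 10.42 at 24 h NR. Over the whole cluster the highest of the 10 values fell at 12 h NR in 21.6% of the genes and at 6 h NR in 68.7%. The higher genes were led by maker-nanno_758-snap-gene-0.10, at 12.83 at 12 h NR, against 9.79 at 6 h NR (8.24-fold higher), and by maker-nanno_1070-augustus-gene-0.14, at 14.35, against 11.84. Both had lost level early in deprivation, with differences between 12 h N- and 6 h N- of -2.60 and -1.83.

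The lower genes of cluster 1 were led by a gene that had gained level through deprivation. The level of augustus_masked-nanno_182-abinit-gene-0.1 was 9.34 at 12 h NR, against 11.33 at 6 h NR, 3.97-fold lower. Over the 5 times of deprivation, in order, it had stood at 8.43, 9.25, 10.55, 11.30 and 11.36, and its 6 h NR level was within 0.03 of the last of these. The next, snap_masked-nanno_5280-abinit-gene-0.6, was at 11.29 at 12 h NR, against 12.90 at 6 h NR, after 9.16 at 72 h N-.

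Cluster 2, the genes that were low early in resupply, stayed low, with a part of them turning upward. Of its 401 genes, 59 were higher at 12 h NR (14.7%, against 10.8% over all genes), 6 were lower and 336 stayed within 2-fold. The median difference was 0.16, with quartiles of -0.24 and 0.67, and the median level was 7.40 at 12 h NR and 7.13 at 6 h NR. Levels over 2-fold lower than at any time of deprivation were found for 335 genes of the cluster at 12 h NR, of 631 (25.4%) over all clusters. At 6 h NR they were found for 335 genes of the cluster, of 513 (20.6%), and 312 genes of the cluster had them at both times. After centring these were 109 genes of the cluster at 12 h NR and 202 at 6 h NR, of 193 (7.75%) and 261 (10.5%), with 97 at both times. On the centred scale 66 genes were higher and 2 lower across the step.

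The 59 higher genes of cluster 2, which were picked by a 6 h NR value below that of 12 h NR, had their lowest value of all at 6 h NR in 58 cases (98.3%, against 55.6% of the cluster and 20.8% of all genes). Their median level was 9.66 at 72 h N-, 6.67 at 6 h NR, 8.09 at 12 h NR and 8.48 at 24 h NR. The largest difference was that of augustus_masked-nanno_174-abinit-gene-0.12, at 8.64 at 12 h NR, against 6.19 at 6 h NR, 5.44-fold higher. Its levels in deprivation had all lain between 9.20 and 9.76, and the 6 h NR value was the lowest of its 10. The gene maker-nanno_579-augustus-gene-0.23 was at 9.27 at 12 h NR, against 7.18 at 6 h NR, below a 72 h N- level of 9.76. In the other direction maker-nanno_759-snap-gene-0.4 was at 9.67 at 12 h NR, against 11.42 at 6 h NR, and augustus_masked-nanno_6786-abinit-gene-0.1 was at 7.40, against 9.05.

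Over the step, the count of genes below their range in deprivation rose in cluster 3 and fell in cluster 4. Among the 872 genes of cluster 3, 279 were over 2-fold lower than at any time of deprivation at 12 h NR, and 77 at 6 h NR. After centring these were 82 and 19. Among the 418 genes of cluster 4 there were 17 such genes at 12 h NR and 101 at 6 h NR, or 2 and 40 after centring. Over all clusters there were 631 (25.4%) at 12 h NR and 513 (20.6%) at 6 h NR. After centring these were 193 (7.75%) and 261 (10.5%). The number of cluster 4 genes within 2-fold of their 6 h N- level was 62 at 12 h NR and 15 at 6 h NR, or 324 and 119 after centring. Over all clusters it was 199 at 12 h NR and 274 at 6 h NR, or 908 and 931 after centring. In cluster 3 the number was 51 at 12 h NR and 164 at 6 h NR, or 360 and 658 after centring.

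The same 6 hours of the clock were also covered in deprivation, by 12 h N- and 6 h N-, which share no column with the step. Fewer genes differed there. The median size of the difference was 0.58 in resupply and 0.31 in deprivation. In deprivation 42 genes were higher at 12 h than at 6 h (1.69%) and 41 were lower (1.65%), or 12 (0.482%) and 66 (2.65%) after centring. The median difference of cluster 3 was -0.82 in resupply and 0.57 in deprivation, and that of cluster 4 was 0.87 and 0.21.

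Few genes passed the limit in both intervals, and those that did mostly had opposite signs. Higher in resupply and lower in deprivation were 25 genes, 13 of cluster 1, 10 of cluster 4 and 2 of cluster 2. They made up 9.29% of the genes higher in resupply, against the 1.65% of all genes that were lower in deprivation. They were 61.0% of the genes lower in deprivation, against the 10.8% of all genes that were higher in resupply. In cluster 4 they were 90.9% of the 11 genes lower in deprivation, and 42.6% of the cluster was higher in resupply. In cluster 1 they were 52.0% of 25, against 3.76%, and in cluster 2 40.0% of 5, against 14.7%. Lower in resupply and higher in deprivation were 13 genes, all of cluster 3, which are 3.79% of the first list and 31.0% of the second. They are 38.2% of the 34 genes of cluster 3 that were higher in deprivation, close to the 35.7% of all cluster 3 genes that were lower in resupply. Higher in both were 0 genes, and lower in both was 1. After centring the counts of opposite sign were 32 and 5. Across the 2489 genes the Pearson correlation of the differences was -0.47 and the Spearman correlation -0.44. Within clusters 1 to 4 the Pearson correlation was -0.54, -0.29, -0.19 and -0.59. Genes are not independent replicates, and the authors' test had picked those whose courses differed between the conditions. The part of that selection in the opposite signs was not tested.

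**Figure D5:**
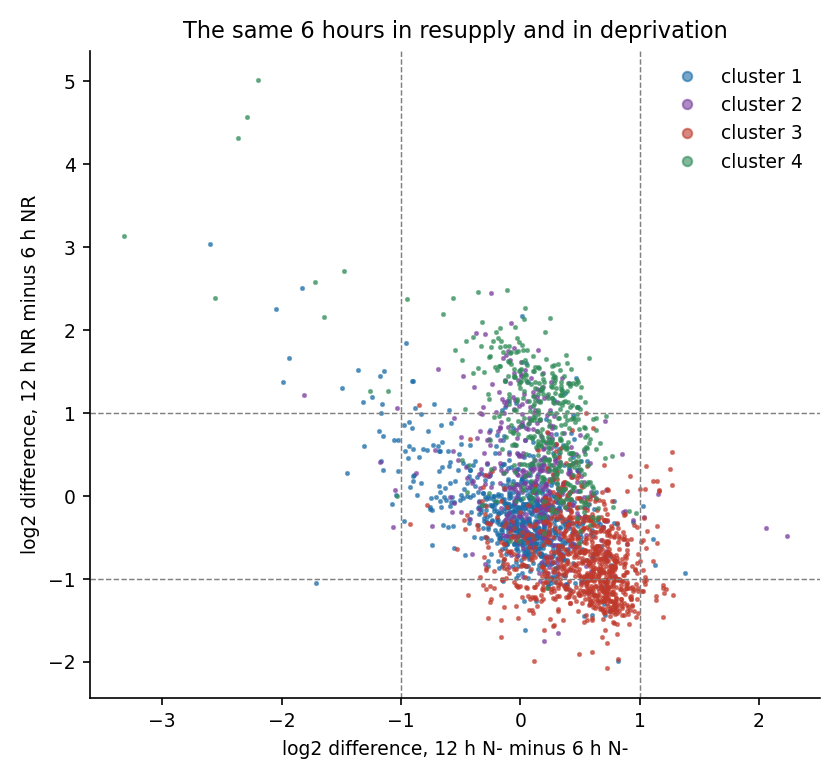
Difference between 12 h NR and 6 h NR (log2, vertical) against the difference between 12 h N- and 6 h N- (log2, horizontal), 1 point per gene, coloured by cluster, with dashed lines at the 2-fold limits. The 25 genes at the upper left were higher in resupply and lower in deprivation, and the 13 at the lower right were the reverse.

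Position is given only by the contig in each identifier. The genes lay on 1215 contigs, and 1757 of them shared a contig with another. Genes with consecutive numbers on a contig (243 pairs) differed from each other by a median of 0.43 in the step, and all pairs on a contig (3879) by 0.68, against 0.73 for all pairs of the 2489 genes. Where both genes of a consecutive pair were past the limit, they had opposite signs in 1 of 25 pairs (4.00%). The share was 98 of 282 (34.8%) for all pairs on a contig and 49.3% for all pairs of genes. Consecutive pairs were in the same cluster in 57.6% of cases, against 27.9% of all pairs. A gene number gives order in the annotation and not a coordinate, and reads of overlapping models cannot be told apart here.

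Gene models of 2 kinds differed in their balance. They were not divided by cluster, and the part of cluster membership in this was not tested. The kind was inferred from the identifier alone, as promoted by evidence where it begins with maker and as prediction alone otherwise. Whether models of the second kind also had evidence is not known here. Of 866 models promoted by evidence, 110 were higher (12.7%) and 97 lower (11.2%). Of 1623 models from prediction alone, 159 were higher (9.80%) and 246 lower (15.2%). Their median mean level was 10.31 for models promoted by evidence and 8.67 for models from prediction alone. Within the 4 bands of mean level, from the lowest to the highest, the share called lower was 2.50%, 11.1%, 14.5% and 11.0% of models promoted by evidence, and 9.39%, 20.8%, 16.9% and 15.3% of models from prediction alone. The share called higher was 13.8%, 18.9%, 13.7% and 8.36% of models promoted by evidence, and 9.76%, 11.3%, 10.7% and 6.18% of models from prediction alone.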

How the data were processed

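RNA of Nannochloropsis oceanica CCMP1779 was sequenced in 44 libraries of 11 groups. Reads of 50 bases from single ends were trimmed, per the labels' protocols, with Trimmomatic 0.32, aligned with STAR 2.3.0e (unique mapping, at most 4 mismatches) and counted with HTSeq 0.6.1. Unique mapping undercounts near-identical genes. The authors called genes with DESeq2 (log2 fold change over 1, adjusted p-value under 0.01) and clustered them by k-means in MeV 4.8.1, per the labels' protocols. The deposited values are log2, as inferred from their range of 1.46 to 19.5, with 1 column per time point. Their scaling, log2 transformation and joining of libraries are not stated in any source at hand, read depth is unknown, and the 0 h group was not analysed here.

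Differences, counts past 1, medians and pair gaps were computed in Python 3.11.15 (pandas 2.3.3, numpy 2.4.6, scipy 1.17.1), and the counting was checked on simulated data. The design foresaw a test across libraries if values per library were given, and none was made. Alternatives were 2 centrings, limits of 1.5-fold and 4-fold, and leaving out the lowest of 4 bands of mean level. A reference table of 160 organelle genes of the related strain IMET1 held 0 of the 2489 identifiers. Named genes are at most 2 in each direction per cluster, by the largest difference past 1, and 1 further gene was named after its values were seen. The members, rules and comparisons were chosen with earlier results of these data known.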

Additional observations from a re-analysis of the deposited data

Results flagged for a closer look

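The contrast of 12 h with 6 h went opposite ways in resupply and in deprivation for 25 genes that were more than 2-fold higher in NR and more than 2-fold lower in N-, and for 13 genes of cluster 3 with the reverse. The 25 are 61.0% of the genes lower in N-, and 10.8% of all genes were higher in NR. Those 13 are 38.2% of the cluster 3 genes higher in N-, and 35.7% of all cluster 3 genes were lower in NR. These differences between the conditions were not tested, since each rests on 1 value per time point. Among the genes named in the text, 5 are of the first kind. The difference was 3.04 in NR and -2.60 in N- for maker-nanno_758-snap-gene-0.10, and 2.51 and -1.83 for maker-nanno_1070-augustus-gene-0.14. It was 5.01 in NR and -2.20 in N- for maker-nanno_4100-augustus-gene-0.5, 4.57 and -2.29 for augustus_masked-nanno_1644-abinit-gene-0.9, and 4.32 and -2.36 for maker-nanno_4100-snap-gene-0.6.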

How the results depend on the processing

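No paired analysis was possible because the tables hold 1 value per time point, and for the same reason no replicate could be left out. The 15 genes named by the rule and maker-nanno_4100-snap-gene-0.6 kept their sign and stayed past the limit under both centrings. Centring subtracts the same column difference, -0.087 or -0.009, from every gene. Genes called higher could thus only move further from the limit. Of the named lower genes, the nearest to the limit had a difference of -1.11, too far for either centring to bring it inside. The centrings are thus no check of the named genes. Leaving out the lowest of 4 bands of mean level cannot change the difference of a gene that stays in. The limit of 1.5-fold gave 446 higher and 775 lower genes, and that of 4-fold 25 and 1. By cluster, 1.5-fold gave 65 higher and 150 lower in cluster 1, 106 and 41 in cluster 2, 7 and 583 in cluster 3 and 268 higher in cluster 4. The 4-fold limit gave 4 higher and 0 lower in cluster 1, 2 and 0 in cluster 2, 0 and 1 in cluster 3 and 19 and 0 in cluster 4. Centring on column medians gave 14 lower genes in cluster 1 and 2 lower in cluster 2, which follows from the same subtraction. It gave 357 genes highest at 12 h NR, against 174 as deposited. The 12 h NR column had the lowest median of the 10, 8.25, so centring raises it against every other column. Genes of opposite sign in NR and N- numbered 50 and 342 at 1.5-fold and 7 and 0 at 4-fold. For those lower in NR and higher in N-, centring gave 5 and equal cluster weights 6. Median differences over all genes and clusters 1 to 4 were -0.18, -0.19, 0.25, -0.73 and 0.95 after centring, -0.26, -0.27, 0.17, -0.81 and 0.88 with equal weights, and -0.28, -0.27, 0.18, -0.95 and 0.95 without the lowest band. Without that band, consecutive genes differed by a median of 0.42. Unknown depth and the lack of replicate values limit every difference here.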
